A study of Mus musculus with 12 samples.

Results

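The nuclear genes for subunits of respiratory chain complexes I to IV were followed in mouse mammary tumours with and without the retinoic acid receptor gene Rarb. They were chosen by gene symbol alone: every gene on the array whose symbol begins with Ndufa, Ndufb, Ndufc, Ndufs, Ndufv or Uqcr, the genes Sdha to Sdhd, and the Cox4 to Cox8 families, without the Ndufaf assembly factors and the genes of the mitochondrial genome. That gave 68 genes of the 20660 named on the array, and 66 of these were among the 13349 genes kept because the sample gave a signal well above background on at least 3 of the 12 arrays. The 66 comprise 36 genes of complex I, 4 of complex II, 8 of complex III and 18 of complex IV, where Ndufa4 and its relative Ndufa4l2 were counted with complex IV. Cox7b2 and Cox8c, subunits known mainly from testis, were not well above background on any array and have no value here.

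The samples were tumours of FVB mice carrying the MMTV-Wnt1 transgene, in which a viral promoter active in mammary epithelium drives the growth factor Wnt1. Every tumour, Rarb +/+ tumours included, has this transgene. Laser capture divided each of 6 tumours into stroma and epithelium, giving 3 KO stroma, 3 WT stroma, 3 KO epithelium and 3 WT epithelium samples, where KO stands for Rarb -/- (replicates 1, 3 and 4) and WT for Rarb +/+ (replicates 1, 2 and 3). The sources used here give neither the ages of the animals nor whether each tumour came from a different mouse, so a p-value here covers no more than the variation among these samples, which may be technical. Each sample was labelled with Cy3 and hybridised beside a universal mouse reference RNA labelled with Cy5, and a level below is the log2 ratio of sample over reference. A level is relative to the reference RNA for that gene and cannot be set against the level of another gene.

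The respiratory chain passes electrons from NADH through complex I, or from succinate through complex II, to coenzyme Q, then through complex III and cytochrome c to complex IV, where oxygen is reduced. Complexes I, III and IV pump protons, and the gradient drives ATP synthase. Most subunits are made in all tissues, but several complex IV subunits also have isoforms restricted to tissues such as heart, skeletal muscle, brown fat or lung.

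The arrays limit the comparisons in several ways. All stromal arrays lay on 1 slide and all epithelial arrays on another, so compartment and slide cannot be told apart, and on both slides KO arrays lay in row 1 and WT arrays in row 2, so genotype and row cannot be told apart. Between 36.0% and 46.3% of probes were well above background in the sample channel, and no spot was saturated. Of 2 Rarb probes, 1 was not above background on any array; the other read 1.83, 2.09 and 0.57 in KO stroma against -0.01, -0.29 and 1.37 in WT stroma, and -1.13, 1.36 and 0.50 in KO epithelium against -0.76, 0.85 and 0.77 in WT epithelium. KO and WT values overlapped in both compartments, and because the sources used here do not say which part of Rarb was deleted or whether the probe lies in it, it does not check the genotype labels. The stromal samples also differed in cell markers. The mean level of 13 luminal epithelial markers was 0.42 to 1.14 in KO stroma and 1.90 to 2.72 in WT stroma, while that of 14 fibroblast markers was 2.79 to 3.24 in KO stroma and 0.04 to 1.65 in WT stroma. In epithelium the luminal mean was 2.42 to 2.68 in KO and 2.46 to 2.86 in WT. The fibroblast mean was -2.79 to -0.27 in KO epithelium and -1.81 to 0.95 in WT epithelium. For both lists the ranges of WT stroma and WT epithelium overlapped, while those of KO stroma and KO epithelium did not. In captured tissue, fewer cells of a type and less RNA per cell cannot be told apart.

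**Figure D1:**
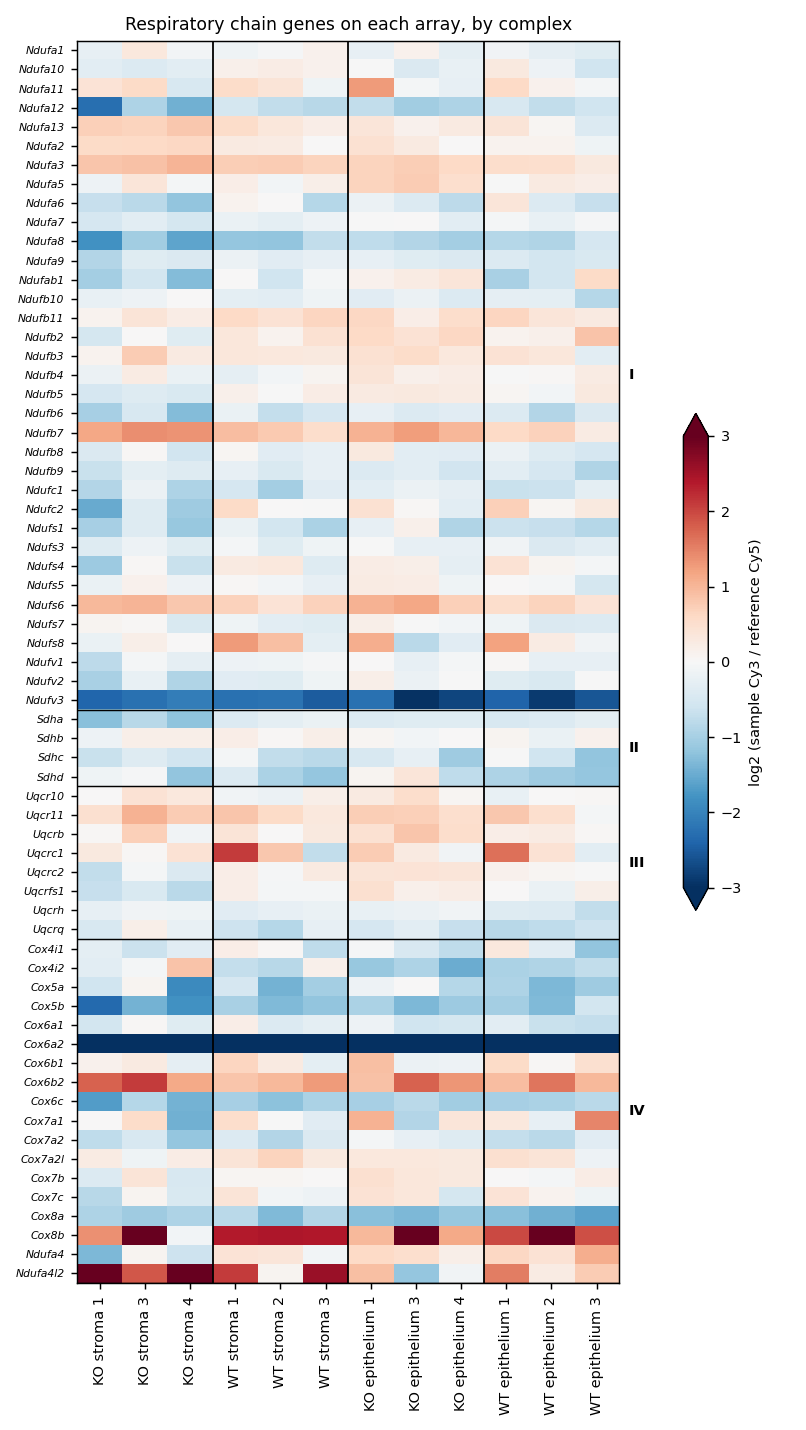
Levels of 65 of the 66 respiratory chain genes (rows, ordered by complex I to IV) on the 12 arrays (columns), as log2 of sample over reference; colours are capped at -3 and 3. Most genes lie near 0 on every array, Cox6a2 is below -3 on all of them, and Ndufa4l2 and Cox8b vary most.

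In stroma, 3 respiratory chain genes passed the test between KO and WT, and all 3 were lower in KO: Sdha of complex II, Uqcrfs1 of complex III and Ndufb5 of complex I. Sdha encodes the flavoprotein that oxidises succinate, Uqcrfs1 the Rieske iron-sulfur protein, and Ndufb5 an accessory subunit of the membrane arm. They are 3 of 66 genes, or 4.55%, and the share of all 13349 genes past the same threshold was 6.45% (2.93% lower in KO), so the share of calls among respiratory chain genes was near that of genes in general, below it in either direction and above it in the lower direction. The test was limma's moderated test over 4 group means, with Benjamini-Hochberg adjustment over all 13349 genes and a threshold of 0.05.

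Sdha read -1.25, -0.82 and -1.21 in KO stroma, against -0.40, -0.30 and -0.19 in WT stroma. All KO stroma samples lay below all WT stroma samples, and the log2 fold change was -0.79 (SE 0.156, limma adjusted p = 0.0189). In epithelium the same gene read -0.41, -0.37 and -0.37 in KO and -0.49, -0.40 and -0.30 in WT, with a log2 fold change of 0.02 and a 95% interval from -0.33 to 0.36.

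Uqcrfs1 read -0.70, -0.46 and -0.81 in KO stroma, against 0.19, -0.06 and -0.05 in WT stroma. The groups did not overlap, and the log2 fold change was -0.68 (SE 0.171, limma adjusted p = 0.0428). Ndufb5 read -0.50, -0.38 and -0.46 in KO stroma, against 0.15, -0.01 and 0.23 in WT stroma, again without overlap, with a log2 fold change of -0.57 (SE 0.147, limma adjusted p = 0.0465).

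These 3 calls rest on few samples. With 1 stromal sample left out, Sdha passed without KO replicate 3 and without WT replicate 3 but not without KO replicate 1, KO replicate 4, WT replicate 1 or WT replicate 2 (adjusted p 0.0201 to 0.0634), and neither Uqcrfs1 (0.0540 to 0.152) nor Ndufb5 (0.0745 to 0.143) passed in any of these 6 fits. No gene of the 66 passed when the 6 stromal arrays were fitted alone or when arrays were centred on their median in place of loess, and Sdha alone passed with Agilent's processed signals or with a smaller background offset. Ndufb5 also did not pass when its probes were averaged, with -0.43 and an adjusted p of 0.210. The direction of all 3 was kept in every one of these fits. KO and WT stroma also differed as groups in cell markers, with luminal markers lower and fibroblast markers higher in KO. The mean level of milk genes was 0.51 to 1.57 in KO stroma and 2.92 to 8.02 in WT stroma. That of macrophage markers was 3.34 to 3.81 in KO stroma and 1.25 to 2.61 in WT stroma. The part of these markers in the result was not tested.

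The promoters of the 3 genes are shown because these genes passed the test in stroma, which is all that groups them here. The 250 bases upstream of each start are from RefSeq (GRCm38.p6, while the array design uses mm9), at chr13:74350241-74350490, minus strand, chr13:30545317-30545566, minus strand, and chr3:32736813-32737062, plus strand. Capitals mark matches to GCGCANGCG, a short form of the motif of NRF-1, a transcription factor known to regulate many respiratory chain genes.
Sdha: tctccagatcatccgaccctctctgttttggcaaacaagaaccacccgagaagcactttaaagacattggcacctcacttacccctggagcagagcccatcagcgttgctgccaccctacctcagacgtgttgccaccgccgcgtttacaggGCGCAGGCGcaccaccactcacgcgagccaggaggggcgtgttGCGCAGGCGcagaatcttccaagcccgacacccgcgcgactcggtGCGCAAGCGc
Uqcrfs1: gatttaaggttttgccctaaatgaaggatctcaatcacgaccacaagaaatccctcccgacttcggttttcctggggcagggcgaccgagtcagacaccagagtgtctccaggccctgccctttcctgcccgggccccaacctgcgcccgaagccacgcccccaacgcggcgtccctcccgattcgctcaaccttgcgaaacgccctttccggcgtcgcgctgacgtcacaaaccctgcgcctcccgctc
Ndufb5: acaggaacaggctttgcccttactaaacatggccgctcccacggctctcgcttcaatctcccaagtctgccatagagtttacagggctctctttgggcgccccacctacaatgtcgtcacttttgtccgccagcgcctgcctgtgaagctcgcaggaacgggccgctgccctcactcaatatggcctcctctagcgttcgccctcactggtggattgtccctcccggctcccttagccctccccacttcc

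Sdha holds 3 matches, while Uqcrfs1 and Ndufb5 hold none. Both strands were searched, also for CCGGAAGT, an ETS motif of the kind GABP binds, and AANATGGCG, a motif of YY1, which had no match in these 3 windows. Of the 53 respiratory chain genes with an entry in the promoter table, 9 (17.0%) held the NRF-1 motif, against 5.86% of all 27025 genes in it, while the ETS motif was found in 2 (3.77%) against 3.23% and the YY1 motif in 2 (3.77%) against 1.29%. A match describes the letters of these windows and does not show binding.

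**Figure D2:**
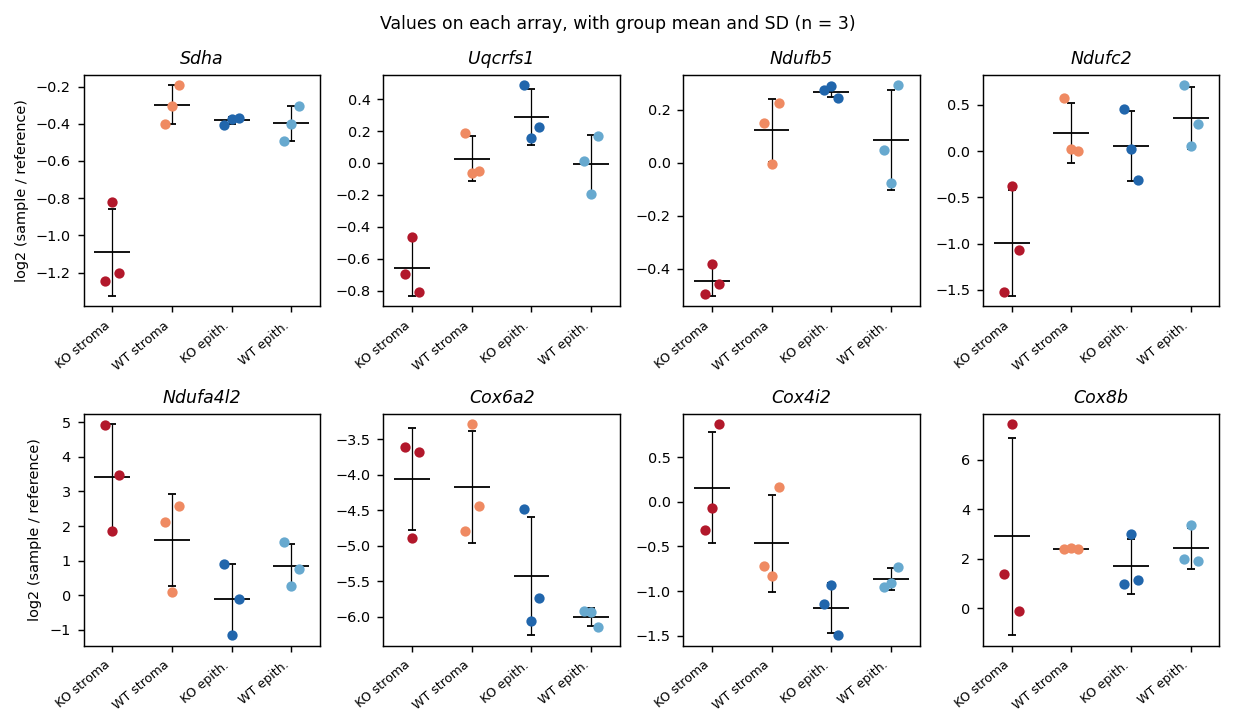
Levels of 8 respiratory chain genes on each array, in KO stroma, WT stroma, KO epithelium and WT epithelium, as log2 of sample over reference; points are samples, the long bar is the mean and the whisker the SD (n = 3), and each panel has its own axis. KO stroma lies below WT stroma for Sdha, Uqcrfs1, Ndufb5 and Ndufc2, and the 2 stromal groups overlap for the other four.

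Among the other genes, stromal differences ran in both directions. Ndufc2, an accessory subunit of complex I, had the most negative value, with -1.52, -0.38 and -1.07 in KO stroma against 0.57, 0.02 and -0.00014 in WT stroma. These groups did not overlap, but the log2 fold change of -1.19 just missed the threshold (SE 0.320, limma adjusted p = 0.0530). Ndufb7, another complex I accessory subunit, read 1.16, 1.40 and 1.34 in KO stroma against 0.93, 0.78 and 0.53 in WT stroma, a log2 fold change of 0.56 that also did not pass (limma adjusted p = 0.0877). In all, 18 genes had no overlap between KO and WT stroma (27.3%), 5 higher and 13 lower in KO, against 26.2% of all genes (13.1% higher and 13.1% lower). By limma's unadjusted p under 0.05 there were 12 genes (18.2%), 10 of them lower in KO, against 21.5% of all genes (10.4% lower).

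By complex, the median log2 fold change in stroma was -0.14 for complex I (24 of 36 negative), -0.04 for complex II (3 of 4), 0.05 for complex III (4 of 8) and -0.19 for complex IV (11 of 18). Over the 66 genes it was -0.13, with 42 negative (63.6%), and over all genes -0.01, with 51.4% negative. The size of this median rested on single samples and on the scaling: it was -0.28 without KO replicate 3, -0.20 without WT replicate 2, -0.08 without KO replicate 1, -0.04 without KO replicate 4 and -0.04 without WT replicate 1, and -0.41 with median centring in place of loess, with 58 negative. The reference channel had a median of -0.08 over these genes between KO and WT stromal arrays, and -0.03 over all genes. The 7 nuclear core subunits of complex I had a median of -0.26 and 6 of 7 were negative, though none passed: Ndufs1 was -0.28 and Ndufv1 -0.26. The other subunits of complexes II to IV that were singled out by name lay between -0.54 for Uqcrc2 and 0.40 for Sdhd, with Sdhb at -0.06, Sdhc at -0.01, Uqcrc1 at -0.46, Cox4i1 at -0.25 and Cox5a at 0.17, and none passed. The values of Sdhb and Sdhc depended on the probe: a further kept probe read -0.66 for Sdhb and -0.23 for Sdhc.

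**Figure D3:**
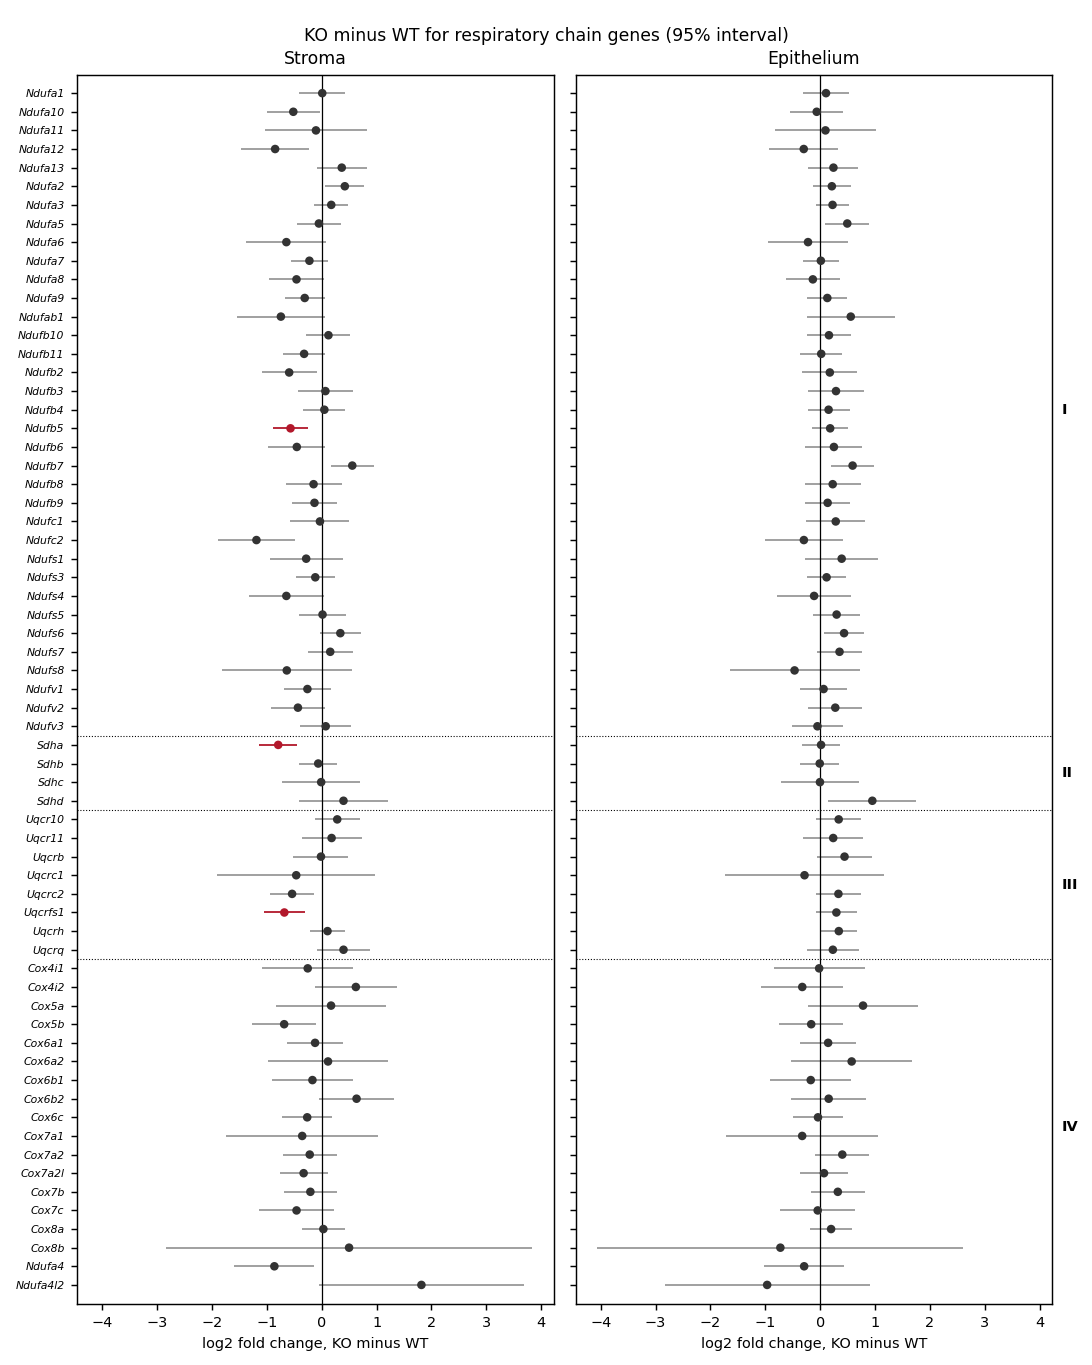
Log2 fold change of KO minus WT for 65 of the 66 genes, in stroma (left) and epithelium (right), with 95% intervals from the limma fit; dotted lines separate complexes I to IV, and red marks genes past the threshold of 0.05 on adjusted p. Sdha, Uqcrfs1 and Ndufb5 are red in stroma, and no gene is red in epithelium.

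In epithelium no respiratory chain gene passed the test between KO and WT, and of all 13349 genes 1 did (0.00749%). By limma's unadjusted p under 0.05 there were 5 of 66 (7.58%), against 8.08% of all genes, and all 5 were higher in KO, against 5.42% of all genes. The largest of the 5 was Sdhd, a membrane anchor of complex II, which read 0.09, 0.37 and -0.76 in KO epithelium against -0.91, -1.08 and -1.16 in WT epithelium. Its groups did not overlap, and the log2 fold change was 0.95 (SE 0.363, limma adjusted p = 0.613). Ndufb7 read 1.04, 1.24 and 1.002 in KO epithelium against 0.59, 0.69 and 0.24 in WT epithelium, with a log2 fold change of 0.59 (limma adjusted p = 0.613). The other three were Ndufa5 (0.49), Ndufs6 (0.43) and Uqcrh (0.34). A further kept probe had the opposite sign for Ndufa5 (-0.12) and for Uqcrh (-0.19), while Sdhd, Ndufb7 and Ndufs6 had no further probe.

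At the extremes of their complexes were Ndufs8 at -0.47 in complex I, Uqcrb at 0.44 and Uqcrc1 at -0.29 in complex III, and Cox5a at 0.78 and Ndufa4l2 at -0.97 in complex IV. The Ndufa4l2 probe was well above background in only 2 KO epithelium samples, so -0.97 is not exact. Cox5a, a core-associated subunit of complex IV, read -0.15, 0.0047 and -0.85 in KO epithelium and -0.92, -1.36 and -1.06 in WT epithelium, and its 95% interval of -0.22 to 1.78 includes 0. In all 14 genes (21.2%) did not overlap between the groups, 13 of them higher in KO, against 14% of all genes (9.54% higher).

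The median over the 66 genes was 0.15 in epithelium, with 45 positive (68.2%), and 0.03 over all genes, with 53.9% positive, but this sign depended on the scaling: with median centring in place of loess it was -0.16, with 13 positive, and all genes moved to -0.17. Without WT replicate 3 it was 0.07. Markers of other cells differed in the same comparison: the median log2 fold change was 0.90 for 6 proliferation markers (all 6 positive), -0.86 for 14 fibroblast markers (12 negative) and -2.32 for 5 milk genes (all 5 negative), with no marker of these lists past the threshold, and their part in the result was not tested. The reference channel, which holds the same RNA on every array, had a median of 0.16 over these genes between KO and WT epithelial arrays and 0.05 over all genes. Respiratory chain genes are bright, with a median mean log2 intensity of 13.4 against 8.85 for all genes.

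The difference of the KO effect between stroma and epithelium was tested within tumours, and no respiratory chain gene passed, nor did any of the 13349 genes (0%). By limma's unadjusted p under 0.05 there were 11 of 66 (16.7%), 10 of them negative, against 18.1% of all genes (9.58% negative). KO and WT tumours did not overlap for 17 genes, 16 of them negative, against 24.1% of all genes (14.1% negative). The fit has 4 residual degrees of freedom, and the standard error of this difference was at least 0.200 and had a median of 0.325 over all genes, and a lack of calls does not show that the compartments act alike. The direction was shared by most genes: 57 of 66 were negative, so that KO minus WT was lower in stroma than in epithelium, against 54.6% of all genes, and the median was -0.28 against -0.06. Among the brightest 3337 genes, 46 of 50 respiratory chain genes were negative, against 54.4% of all genes of that brightness. Cell markers moved in the same comparison without any passing, with medians of 3.14 for fibroblast (14 of 14 positive), 1.97 for macrophage (8 of 9), 2.87 for adipocyte (7 of 7), -1.49 for luminal (12 of 13 negative) and -2.34 for milk genes (5 of 5 negative), and their part in the result was not tested. The median of the 66 genes stayed negative under every scaling, filter and omission tried, from -0.48 without KO tumour 3 to -0.12 without KO tumour 1. The reference channel ran the same way. Between KO and WT arrays its median over these genes was -0.08 in stroma and 0.16 in epithelium, and over all genes -0.03 and 0.05. Its part in the result was not tested, and genotype and row of the slide cannot be told apart. All 7 core complex I genes and all 4 complex II genes were negative, as were 7 of 8 in complex III and 13 of 18 in complex IV. In complex II, Sdhc (-0.0046, SE 0.292) and Sdhb (-0.054, SE 0.232) were near 0.

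Set out by tumour, the median of stroma minus epithelium over the 66 genes was -0.47 in KO tumour 1, 0.03 in KO tumour 3 and -0.20 in KO tumour 4, against 0.09, 0.08 and 0.13 in WT tumours 1, 2 and 3. All KO values lay below all WT values, and KO tumour 3 was close to them. In WT tumours the ranges of stroma and epithelium overlapped in the mean level of luminal and of fibroblast markers. Within WT tumours 1, 2 and 3 the luminal mean was 2.72, 2.10 and 1.90 in stroma against 2.86, 2.46 and 2.53 in epithelium. The fibroblast mean was 0.37, 0.04 and 1.65 in stroma against -0.83, 0.95 and -1.81 in epithelium. The part of these markers in the medians was not tested. The most negative difference was that of Ndufab1, the mitochondrial acyl carrier protein, at -1.30 (limma adjusted p = 0.217), followed by Uqcrfs1 at -0.98 (0.140), and Sdha was at -0.81 (0.152). The most positive was Ndufa4l2 at 2.78 (limma adjusted p = 0.0908), and it passed only without WT tumour 3, with 3.33 and an adjusted p of 0.0468. Its probe was well above background in only 2 KO epithelium samples, so these differences are not exact.

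**Figure D4:**
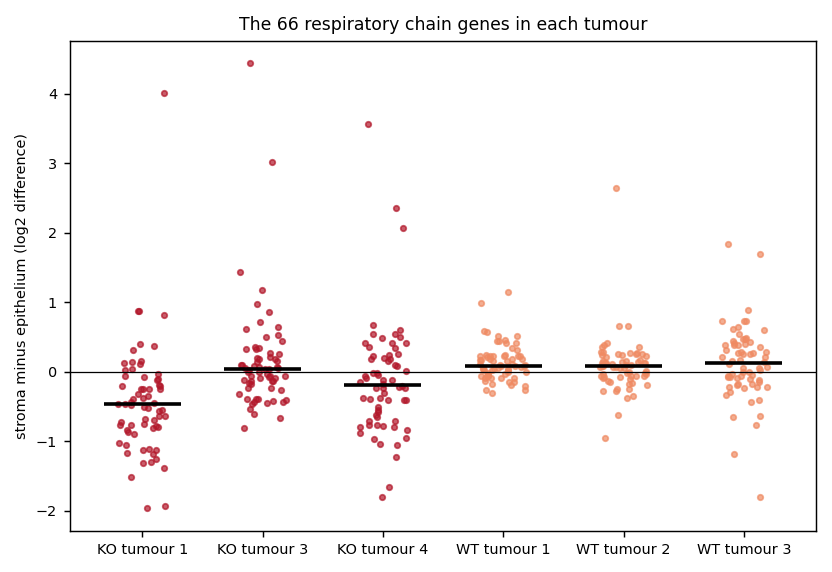
Stroma minus epithelium for each of the 66 genes (points) in the 6 tumours, as a log2 difference; the bar is the median. The medians of KO tumours 1 and 4 are -0.47 and -0.20, that of KO tumour 3 is 0.03, and those of the WT tumours lie between 0.08 and 0.13.

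Between stroma and epithelium over all 6 tumours, 2 of 66 genes (3.03%) passed, both tissue-restricted members of complex IV and both higher in stroma, against 15% of all genes (8.36% higher). They were Ndufa4l2, a relative of Ndufa4 known as a target of the hypoxia-inducible factor HIF-1, and Cox6a2, the heart and muscle form of subunit 6a. Both passed in all 6 fits that left out 1 tumour, and since each compartment has its own slide, compartment and slide cannot be told apart. The ranges of WT stroma and WT epithelium also overlapped in the mean level of luminal and of fibroblast markers. Within each WT tumour the luminal mean was lower in stroma. The part of these markers in this comparison was not tested. Stroma was higher or lower in all 6 tumours for 12 genes, 7 higher and 5 lower, against 15% of all genes (8.03% higher and 6.95% lower). The median log2 fold change was -0.04, with 29 of 66 positive, against -0.03 over all genes, of which 46.7% were positive. The sign of this median was not stable: without KO tumour 1 it was 0.02, without KO tumour 3 -0.15, without WT tumour 2 -0.03, and with median centring it was -0.26, with 57 negative.

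Ndufa4l2 read 4.91, 1.87 and 3.47 in KO stroma and 2.11, 0.09 and 2.59 in WT stroma, against 0.89, -1.15 and -0.10 in KO epithelium and 1.53, 0.25 and 0.76 in WT epithelium. Stroma was higher in 5 of 6 tumours, with a difference of -0.16 in WT tumour 2 and 4.02, 3.02 and 3.56 in the KO tumours. The probe was not well above background in KO epithelium replicate 3, so the value of -1.15 there is a bound and 3.02 cannot be taken as exact. The log2 fold change was 2.14 (SE 0.270, limma adjusted p = 0.00624), and without KO tumour 3 it was 2.27 (limma adjusted p = 0.0215). Between KO and WT stroma it was 1.82, with a 95% interval from -0.05 to 3.69. Its common partner Ndufa4 moved the other way without passing, at -0.77 (limma adjusted p = 0.0779).

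Cox6a2 read -3.61, -4.89 and -3.67 in KO stroma and -4.79, -3.29 and -4.45 in WT stroma, against -4.49, -6.06 and -5.74 in KO epithelium and -5.93, -5.93 and -6.15 in WT epithelium. Stroma was higher in 6 of 6 tumours, with a log2 fold change of 1.60 (SE 0.240, limma adjusted p = 0.00969), and KO did not differ detectably from WT in stroma (0.12, 95% interval -0.99 to 1.22). Of 14 skeletal muscle markers 8 were kept, and their mean, which averages members of opposed levels, was -0.34 to -0.19 in KO stroma and -0.30 to 0.41 in WT stroma, against -0.48 to -0.08 in KO epithelium and -0.23 to -0.13 in WT epithelium. Ckm and Casq1 were not above background on any array. The myosin genes Myh1 and Myh4 were above background only in KO stroma replicate 3 (1.22 and 1.31) and WT stroma replicate 3 (0.70 and 0.44), and the troponin gene Tnnc2 was highest in the same samples, at -0.19 and 0.55. Cox6a2 was not the highest of its group in either. Of the 8 kept, 5 had a positive log2 fold change between stroma and epithelium, none past the threshold. The other 3 had a negative one, and 1 of these passed. The most negative was Mb, at -2.05. The troponin gene Tnni2 was higher in stroma in 6 of 6 tumours. It read -0.30, 0.13 and 0.19 in KO stroma, against -0.71, -1.14 and -0.83 in KO epithelium. In WT it read -1.84, -0.41 and 0.33 in stroma, against -2.05, -1.05 and -1.94 in epithelium. The myoglobin gene Mb read 0.20 (not above background) to 1.07 in KO stroma and 3.72 to 5.06 in WT stroma, against 3.103 to 4.86 in KO epithelium and 4.79 to 5.67 in WT epithelium. The part of these markers in the result was not tested. The common form Cox6a1 had a log2 fold change of 0.26 (limma adjusted p = 0.303).

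The other restricted isoforms did not pass. Cox4i2, the lung form of subunit 4, came closest at 0.87 (limma adjusted p = 0.0543), and stroma was higher in 6 of 6 tumours. Cox7a1, the heart and muscle form of subunit 7a, was -0.45, and Cox6b2, known from testis, 0.10; the common forms were -0.26 for Cox7a2, -0.16 for Cox6b1, -0.28 for Cox7b and 0.35 for Cox8a.

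Cox8b, a form of subunit 8 found in heart, muscle and brown fat, stood apart in 1 sample. It read 1.38, 7.44 and -0.09 in KO stroma against 2.39, 2.43 and 2.41 in WT stroma, and 0.98, 2.99 and 1.14 in KO epithelium against 1.98, 3.39 and 1.93 in WT epithelium. Replicate 3 alone was high in KO stroma, and the log2 fold change between KO and WT stroma was 0.50 with it and -1.77 without it. The value of -0.09 in KO stroma replicate 4 was not well above background, so these fold changes are not exact, and without that sample the log2 fold change was 1.998. The brown fat gene Ucp1 was above background in KO stroma replicate 3 only, at 3.19. In that replicate Cidea read 5.92, Dio2 4.83 and the adipocyte hormone Adipoq 3.47, against at most 4.57, 1.24 and 0.15 in WT stroma. Adipoq also read 3.18 in WT epithelium replicate 3 and 2.04 in WT epithelium replicate 2. General adipocyte genes were also highest there of all arrays: Fabp4 (9.19), Retn (5.98), Plin1 (5.86), Cidec (5.26) and Lpl (3.67) in KO stroma replicate 3. Pck1, at 1.32, was not, and Lep was not above background on any array. Dio2 was also high in the other KO stroma samples, at 2.42 and 3.25. Of the 5 brown fat genes listed, the remaining ones did not stand out in KO stroma replicate 3. Elovl3 was not above background in it, and Ppara, at 0.84, was lowest of the 3 KO stroma samples. Their part in the result was not tested.

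Genes that act beside the chain were read from lists of ATP synthase, assembly factors, biogenesis regulators, citric acid cycle enzymes, electron carriers and coenzyme Q synthesis, and mitochondrial ribosome. In epithelium none of their members passed between KO and WT. In stroma, where 6.45% of all genes passed (2.93% lower in KO), 1 of 16 ATP synthase genes was lower in KO (Atp5a1, -0.73), as was 1 of 33 assembly factors (Acad9, needed to build complex I, -1.19), 1 of 13 carrier and coenzyme Q genes (Coq2, -0.58) and 1 of 76 ribosomal genes (Mrpl48, -0.79), while Mrpl33 was higher (0.68), and no gene passed among 15 biogenesis regulators and 17 citric acid cycle enzymes. The medians were -0.23 for ATP synthase (14 of 16 negative), -0.04 for assembly factors (17 of 33), -0.30 for biogenesis regulators (13 of 15), -0.23 for the citric acid cycle (11 of 17), -0.27 for carriers (9 of 13) and -0.29 for the ribosome (62 of 76), against -0.01 over all genes, of which 51.4% were negative. In the difference of the KO effect between compartments the ribosome had a median of -0.40, with 67 of 76 negative, and ATP synthase -0.49, with 14 of 16 negative, against 54.6% of all genes. Between stroma and epithelium, where 15% of all genes passed, Coa5 (0.44) and Mrpl33 (0.44) were higher in stroma, and Acad9 (-0.58), Etfdh (-0.54), Mrpl44 (-0.61) and Mrps30 (-0.58) were lower.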

How the data were processed

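RNA from captured stroma and epithelium was measured on 12 arrays of 2 colours, with the sample in Cy3, a reference RNA in Cy5 and no dye swap, per the labels. The deposited scanner files give spot and background intensity in both channels, read with Agilent Feature Extraction 10.7.3.1 per the file headers. They also hold a log10 ratio, deposited as Cy5 over Cy3 and turned here to sample over reference. How the authors made the log2 values of the deposited table is unknown here. Its epithelial columns ran as reference over sample (r of -0.869 to -0.903 with sample over reference across probes, which are not replicates). Their medians were 0.022, 0.0095 and 0.012 in KO, and 0.0033, -0.011 and -0.045 in WT. Its stromal columns had medians of 0.046, -0.0056 and 0.0011 in KO, and -0.0011, 0.0091 and 0.013 in WT. They went with no array, so row order, scale and direction are unknown and they were not used.

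Median intensities were corrected with normexp (offset 50) and scaled by loess within arrays, control spots aside, in limma 3.58.1 (R 4.3.3). Non-uniform spots were left out, spots of a probe were averaged, and each gene was read from its brightest probe. Of 55681 probes, 27235 were named by accession through RefSeq. In 14 respiratory chain genes with further kept probes, 8 of 17 such probes had the opposite sign in epithelium and 5 in stroma. KO was set against WT with 4 group means. The comparisons between compartments had tumour as a block, since same-numbered samples are compartments of 1 tumour, and the correlation of their deviations was 0.091 to 0.454. The fits were tested on simulated data without tumour effects, and most true log2 changes of 1 were missed. Of these, 28.4% were recovered for KO against WT in epithelium, 31.3% in stroma and 34.3% for stroma against epithelium. For the difference of the KO effect 0% of changes of 1 and 31.3% of changes of 2 were recovered. Alternatives changed the background, scaling, filter, probes, weights and samples. Genes named are those past the threshold, the extremes of each complex, fixed core subunits and restricted isoforms with their partners, and a few others named after their values were seen. Single values of 1 further gene are not reported here. The members and lists were chosen with earlier results of these data known. The number of arrays limits the precision.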

Additional observations from a re-analysis of the deposited data

Results flagged for a closer look

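Sdha differed in the sign of stroma minus epithelium between KO and WT tumours. It was lower in stroma than in epithelium in all KO tumours (-0.84, -0.45 and -0.84) and higher in all WT tumours (0.09, 0.10 and 0.11), a difference of -0.81 on the log2 scale. The difference did not pass the test within tumours (limma adjusted p = 0.152). None of the WT values exceeded the standard error of Sdha between stroma and epithelium over all tumours, which was 0.112. A rise in WT stroma is therefore not shown. The share of all genes with such opposite signs is not given here.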

How the results depend on the processing

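Of 827 values of single genes recomputed under other settings, 36 changed sign, none of them a gene past the threshold. With median centring the median over the respiratory chain genes was -0.16 in epithelium and -0.41 in stroma between KO and WT, and the count of genes past the threshold in stroma was 0. That count was 1 with Agilent's processed signals, 1 with offset 16, 0 with the stromal arrays alone, and 0 to 3 with 1 sample left out. With tumour as a random replicate block it was 3, and the block changed no other call of KO against WT. Between stroma and epithelium the count was 4 with no filter and 4 with no replicate block, and 0 to 1 for the difference in KO effect with 1 tumour left out. Over all genes the last count was 90 with a filter on all 12 arrays, 79 with array weights, 50 with no replicate block, 22 with no filter and 144 without WT tumour 3.

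Signs turned as follows. KO against WT in epithelium: Sdhb 0.011 (offset 16) and 0.060 (array weights), Cox6b2 -0.0085 (median centring), Cox7a1 0.0034 (array weights). KO against WT in stroma: Cox8b -0.58 (Agilent's signals), Cox6a2 -0.067 (median centring). Stroma against epithelium with median centring: Cox6b2 -0.047, Sdhb -0.15, Uqcrq -0.046. Difference of the KO effect: Cox7a1 0.11 and Sdhc 0.075 (median centring), Sdhc 0.078 (array weights). With 1 sample left out, Cox6b2 ran from -0.065 to 0.38, Cox7a1 from -0.77 to 0.20, Sdhb from -0.11 to 0.057 and Uqcrc1 from -0.74 to 0.24 in epithelium, and Cox6a2 from -0.19 to 0.56, Cox7a1 from -0.78 to 0.22 and Cox8b from -1.77 to 1.998 in stroma. With 1 tumour left out, Cox6b2 ran from -0.030 to 0.24 and Cox8b from -0.22 to 1.20 between compartments, and Cox7a1 from -0.98 to 0.64, Cox8b from -0.40 to 2.44 and Sdhc from -0.23 to 0.16 in the difference of the KO effect. The cause was not tested.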
